A study of Mus musculus with 3 samples.

Results

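Type I interferon response genes are the genes that a cell turns on when interferon alpha or interferon beta binds the receptor on its surface. The set followed here holds 37 such genes out of 55357 features in the deposited matrices, picked by gene symbol with no threshold on a measured value, and all 37 symbols were found. The libraries are droplet single-cell RNA counts from mouse lung, in which each unique molecular identifier (UMI) stands for 1 captured RNA molecule. All mice were wild-type C57BL/6, and each group was given 50 µL into the trachea: PBS alone, LPS (the endotoxin of Gram-negative bacteria) at 4 mg/kg, or that dose of LPS together with 6 µg of Reg3g, a secreted lectin. Lungs were taken 24 h later, and cells were sorted as DAPI-CD45+Ly6G-F4/80+ and positive for CD11b or CD11c. A group is represented by a single library of cells pooled from 3 mice. No difference between groups can therefore be checked against replicates or tested, and every interval given is a 95% interval for counting error alone.

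Interferon alpha and beta are made when a cell senses viral nucleic acid or, through the LPS receptor and the adaptor TRIF, bacterial endotoxin. Their shared receptor activates the kinases Jak1 and Tyk2, and a complex that holds Stat2 and Irf9 then enters the nucleus and switches on the response genes through a short DNA element. The products block viral entry, translation and replication, sense foreign RNA and DNA, and feed back on the pathway itself. In the lung, alveolar macrophages live in the airspaces, whereas monocytes arrive from blood.

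The libraries held 8475 (PBS), 15015 (LPS) and 10213 (LPS with Reg3g) barcodes with 52354207, 70474636 and 60942042 UMIs, and 7860, 13015 and 9281 cells were kept. Between 28 and 37 barcodes occurred in both libraries of a pair. Cells were grouped into classes by clustering with all interferon genes left out, and a class is called "-like" because its name rests on marker genes alone. Since the clusters come from other genes of the same cells, differences between classes are descriptions. Alveolar-macrophage-like cells numbered 3565, 5042 and 4121 in the order PBS, LPS, LPS with Reg3g, classical-monocyte-like cells 1431, 720 and 604, nonclassical-monocyte-like cells 794, 229 and 224, and dendritic-cell-like cells 1231, 1106 and 266. Of the marker lists, all 9 classical monocyte genes had UMIs in classical-monocyte-like cells of every library. The same 9 genes also had UMIs in alveolar-macrophage-like and dendritic-cell-like cells of every library. Their detection therefore does not separate the classes and is no check of the class name, which rests on the same list. Plasmacytoid dendritic cells, the specialised interferon producers, formed no cluster. After LPS the largest monocyte-like cluster (3204 and 2323 cells) scored for the classical and the nonclassical markers, and cell by cell 44% and 45.7% of monocyte-like cells held UMIs of a classical gene (Ly6c2, Vcan or F13a1) and of a nonclassical gene, so all monocyte-like classes are also given together (2251, 6049 and 4200 cells). In clustering, PBS classical cells fell almost wholly into cluster 5 and those after LPS into cluster 10. Likewise 93.1% of PBS alveolar-macrophage-like cells were in cluster 2 and 59.4% of those after LPS in cluster 19. The sort gate also shapes these shares.

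In PBS lungs the summed level of the interferon response genes was higher in monocytes than in dendritic cells, and lower in alveolar macrophages than in either. Levels are given as counts per 1000000 UMIs of a class in a library (CPM). Summed over the 37 genes, the level in PBS was 418 CPM (410.5 to 425.6) in alveolar-macrophage-like cells, 1572 CPM (1547 to 1598) in dendritic-cell-like cells, 5381 CPM in nonclassical-monocyte-like cells and 8654 CPM (8578 to 8731) in classical-monocyte-like cells. The classical level was thus 20.7-fold that of alveolar macrophages, and gene by gene all 37 members were at least 2-fold higher there, with a median of 40.5-fold. The class with the highest level was classical-monocyte-like for 31 of the 37 genes, and the lowest was alveolar-macrophage-like for 24. Ifi205, a DNA-binding PYHIN protein, was an exception: it was highest in type 1 conventional dendritic-cell-like cells, at 147 CPM against 20.2 CPM in classical-monocyte-like cells. A large part of the monocyte sum came from Ifitm3, which blocks viruses from leaving endosomes, at 4973 CPM in PBS classical cells. Without Ifitm3 and Bst2, the sums in PBS were 314 CPM in alveolar-macrophage-like and 3311 CPM in classical-monocyte-like cells, so the order of these classes was the same.

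**Figure D1:**
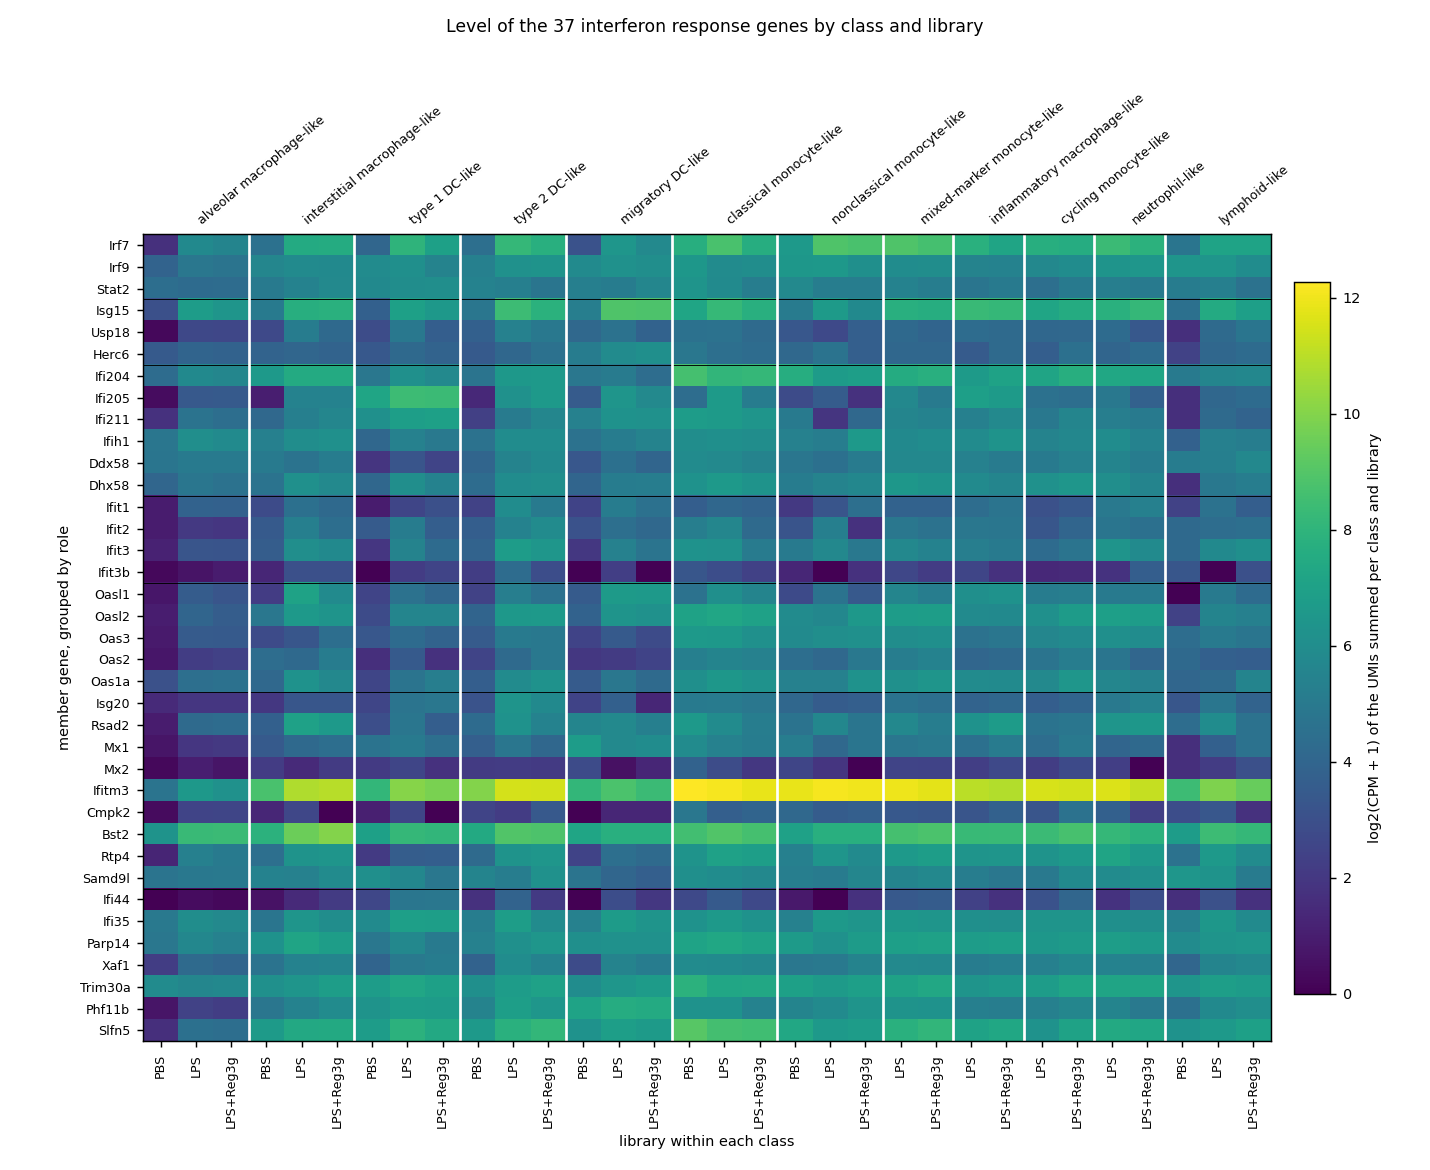
Level of each of the 37 interferon response genes (rows, grouped by role) in each library of each cell class with at least 50 cells (columns, labelled at the top by class); colour gives log2(CPM + 1). The darkest column is that of alveolar-macrophage-like cells in PBS, which sum to 418 CPM, and the brightest row is Ifitm3, at 4973 CPM in classical-monocyte-like cells of PBS.

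After LPS, the level in alveolar-macrophage-like cells was 3-fold that after PBS, while over all monocyte-like cells together it was not higher. The sum in alveolar-macrophage-like cells was 418 CPM after PBS, 1253 CPM (1241 to 1266) after LPS and 1151 CPM (1140 to 1163) with LPS plus Reg3g, a log2 ratio of LPS over PBS of 1.58 (1.55 to 1.61). The distance between the classes was smaller in the LPS library, where the classical-monocyte-like sum was 6.7-fold the alveolar one. Of the 37 genes, 21 reached the floor of a mean of 10 CPM over the libraries in alveolar-macrophage-like cells. Among these 21, 14 were higher by at least 2-fold after LPS and 0 were at least 2-fold lower, where 5.67% of all 7270 genes past the floor were higher by that much and 11.5% lower. Their median log2 ratio was 1.53, beside -0.22 over all those genes. A gene that is low in PBS reaches the floor only through its level in another library, so all 37 are also counted: 35 had a higher level with LPS than with PBS (36.5% of the genes past the floor had), 29 of them by at least 2-fold.

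By role, the transcription factors of the pathway differed among themselves. Irf7, the factor that amplifies interferon production and is itself a response gene, had 2.30 CPM with PBS, 56.3 CPM with LPS and 46.2 CPM with LPS plus Reg3g in alveolar-macrophage-like cells (log2 ratio of LPS over PBS 4.61, 4.26 to 4.99). Irf9, the DNA-binding part of the complex, had 13.8, 28.2 and 25.7 CPM in the same order. Stat2, its partner, had 20.5, 18.8 and 19.0 CPM. Irf7 was thus much higher in both LPS libraries than in PBS, Irf9 was about 2-fold higher and Stat2 was near the same level in all 3. With LPS, Irf7 in this class still stood at 15.4% of its level in all monocyte-like cells together. The sign for Stat2 depends on scaling: its log2 ratio of LPS over PBS was -0.12 in CPM and 0.21 with trimmed mean (TMM) scaling, which shifts every ratio of this class by 0.34.

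Isg15, a ubiquitin-like protein that is attached to other proteins, had the highest count of the conjugation group. Its level in alveolar-macrophage-like cells was 6.97 CPM with PBS, 109 CPM with LPS and 84.5 CPM with LPS plus Reg3g, a log2 ratio of LPS over PBS of 3.97 (3.76 to 4.18). Usp18, which removes Isg15 from its targets and restrains the receptor, stayed under the floor, with 6 UMIs in PBS and 163 with LPS (0.212 and 5.24 CPM). Herc6, the ligase that attaches Isg15 in mice, had 10.1, 14.4 and 13.3 CPM, a much smaller difference than that of Isg15.

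The antiviral effectors held the largest ratio among genes past the floor. Rtp4, an interferon-induced inhibitor of flavivirus replication, had 1.45 CPM with PBS, 39.3 CPM with LPS and 30.9 CPM with LPS plus Reg3g (log2 ratio of LPS over PBS 4.76, 4.31 to 5.25). Rsad2 (viperin), an enzyme that makes a chain-terminating nucleotide, had 0.885, 18.2 and 19.3 CPM. Bst2 (tetherin), which holds budding virus at the cell surface, had 78.0, 321 and 329 CPM, and Ifitm3 had 25.7, 91.3 and 73.5 CPM. With LPS this Ifitm3 level was 2.66% of that in all monocyte-like cells together. These 4 genes were all at least 2-fold higher in both LPS libraries than in PBS. Samd9l, a restriction factor that acts on translation, had 25.2, 29.3 and 30.2 CPM and did not share in this. The remaining effectors Mx1, Mx2, Isg20 and Cmpk2 lay under the floor, at or below 4.90 CPM in each library.

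All 4 IFIT genes, whose products bind foreign RNA ends, lay under the floor in alveolar-macrophage-like cells. Their sum was 3.26 CPM with PBS, 25.5 CPM with LPS and 24.7 CPM with LPS plus Reg3g, and Ifit1 made up the largest part with 0.920, 13.5 and 12.8 CPM. The 5 genes of the oligoadenylate synthetase (OAS) family, whose active enzymes trigger RNase L, summed to 10.4, 61.4 and 57.3 CPM. Oas1a was the member past the floor (7.25, 21.2 and 22.9 CPM). Both families were therefore several-fold higher with LPS but low throughout. Of 500 read windows near the 3′ end of Oas1a, 52.6% match Oas1g, so its counts are uncertain.

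Among the nucleic acid sensors, the DNA-binding PYHIN genes differed more than the RNA helicases. Ifi211 had 2.41, 24.3 and 20.7 CPM and Ifi204 had 19.4, 55.9 and 49.3 CPM. Ifih1, a sensor of long double-stranded RNA, had 27.5, 66.2 and 57.6 CPM, and Ddx58 (RIG-I), a sensor of viral RNA ends, had 26.5, 31.4 and 31.7 CPM. A limit applies to Ifi205 and Ifi211: 64.8% and 63.2% of the read windows at their 3′ ends match the other gene, so counts of this pair cannot be divided with certainty. The remaining members ranged from Slfn5, a Schlafen family gene, at 2.16, 22.5 and 20.9 CPM to Trim30a, an inhibitor of inflammatory signalling, at 59.7, 49.5 and 53.0 CPM. Trim30a was the gene past the floor with the lowest ratio (log2 -0.27, -0.37 to -0.17; 0.07 with TMM scaling).

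**Figure D2:**
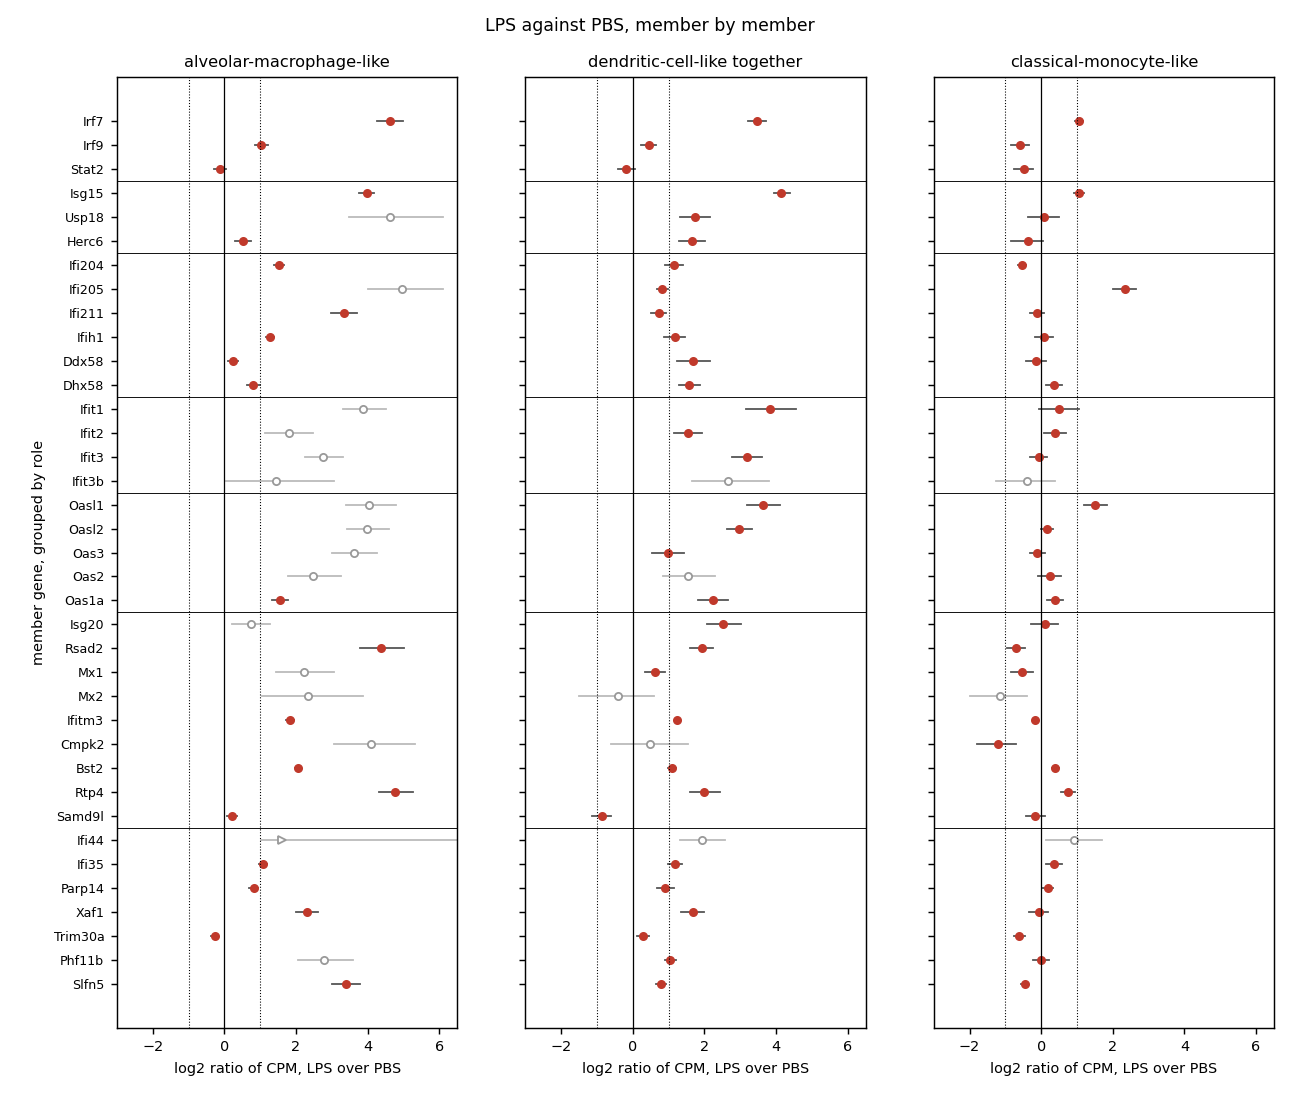
Log2 ratio of CPM, LPS over PBS, for each interferon response gene (rows, grouped by role) in alveolar-macrophage-like, dendritic-cell-like and classical-monocyte-like cells; bars are exact intervals for counting error, open grey points lie under the floor, the triangle is a bound and dotted lines mark 2-fold. Rtp4 and Irf7 lie at 4.76 and 4.61 in alveolar-macrophage-like cells and Isg15 at 4.15 in dendritic-cell-like cells, while the median in classical-monocyte-like cells is 0.03.

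Monocyte-like cells were the most frequent other class, so the level in alveolar-macrophage-like cells was set beside that of monocyte marker genes. With LPS, 7 monocyte markers (Ly6c2, Ccr2, Vcan, F13a1, Ace, Treml4 and Plac8) stood in alveolar-macrophage-like cells at 1.39% to 3.98% of their monocyte-like level. The interferon response genes stood at a median of 32.7% of it, and 36 of the 37 lay above the highest marker, the exception being Ifitm3 at 2.66%. In PBS the markers stood at 0.299% to 11.3% and the response genes at a median of 3.36%, with 12 above the highest marker. That highest marker was Treml4, and the next, Ace, stood at 3.54%. The levels of most response genes in alveolar macrophages of PBS lungs were thus in the range of the monocyte markers, whose top is set by Treml4 alone. In the LPS library all but Ifitm3 lay above that range. Only monocyte-like cells were compared in this way, and the part of RNA from other cells in these levels was not tested. Leaving out members whose level, in the library where it was highest in alveolar-macrophage-like cells, was under 10% of that of another class left 19 genes past the floor. Ifitm3 and Slfn5 were the genes past the floor that this left out. Of the 19, 12 were at least 2-fold higher with LPS.

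**Figure D3:**
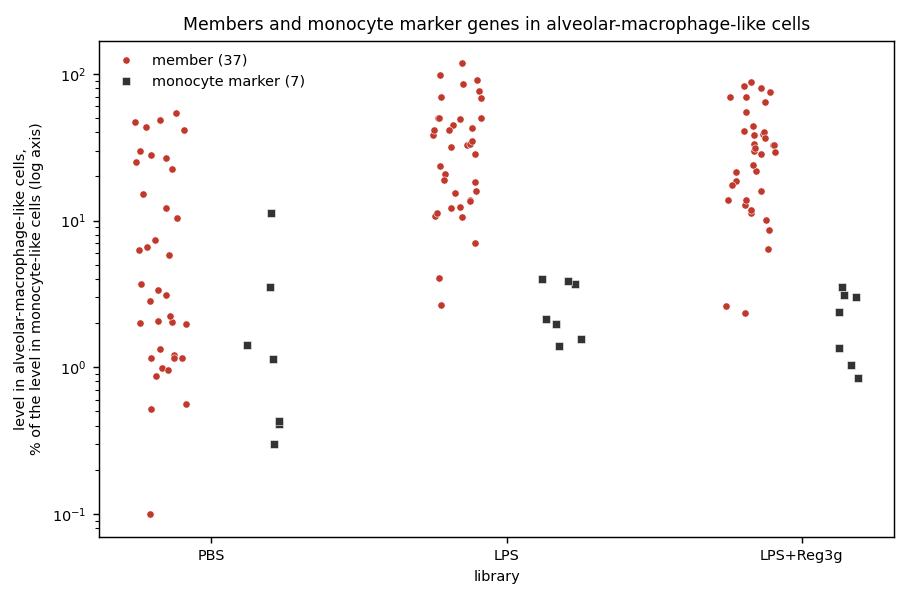
Level in alveolar-macrophage-like cells as a percent of the level in all monocyte-like cells together (log axis) for 37 interferon response genes and 7 monocyte markers in each library; each point is 1 gene, and Ifi44 in PBS, which is at 0, is drawn at 0.1. In both LPS libraries nearly all response genes lie above the markers, which reach 3.98% and 3.54%.

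The difference was spread over many cells. The median alveolar-macrophage-like cell held the 37 genes at 366 CPM with PBS (10th to 90th percentile 105 to 741), 933 with LPS (288 to 2278) and 797 with LPS plus Reg3g (249 to 2110). With all UMIs counted, the median of the LPS cells was above the 90th percentile of the PBS cells. With each cell thinned to 2000 UMIs it was not: both were 1000 CPM, and the medians were 500, 1000 and 500 CPM. After thinning each cell to 2000 UMIs, Isg15 was seen in 1.31% of 3522 cells with PBS, 15.5% of 4843 with LPS and 11.6% of 4044 with LPS plus Reg3g, and 43, 199 and 77 shallower cells were left out. Without thinning these shares were 4.10%, 33.8% and 31.0%, at median depths of 7666, 6052 and 7564 UMIs. No class here can be taken to lack Isg15, as lymphoid cells can respond to interferon too. In lymphoid-like cells the thinned shares were 2.25% of 89 cells, 21.2% of 85 and 18.5% of 65, and 75, 92 and 52 shallower cells were left out. Median depths over all lymphoid-like cells were 2127, 1901 and 2305 UMIs. The part of RNA from other cells in these shares was not tested.

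**Figure D4:**
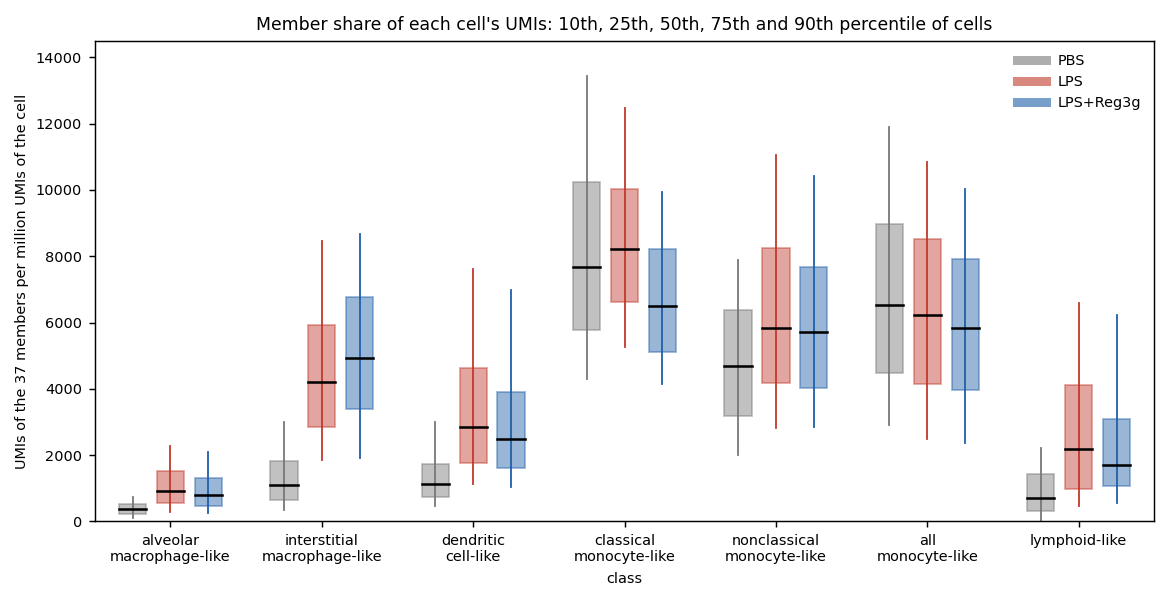
UMIs of the 37 interferon response genes per 1000000 UMIs of a cell (vertical axis), by class and library; black lines are medians over cells, boxes span the 25th to the 75th percentile and thin lines the 10th to the 90th. In alveolar-macrophage-like cells the median is 366 with PBS, 933 with LPS and 797 with LPS plus Reg3g, and the classical-monocyte-like cells lie far higher with 7689, 8219 and 6489.

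Alveolar-macrophage-like clusters differed in level after LPS. Cluster 19 made up 59.4% of the class in the LPS library and 52.2% of it when Reg3g was added, and it had 1441 CPM (1425 to 1458) and 1462 CPM (1445 to 1480) of the 37 genes. Cluster 14 had 964 and 831 CPM, cluster 13 had 784 and 603 CPM, and the cycling cluster 7 had 907 and 741 CPM. The highest level was thus in the largest cluster of both LPS libraries. In the LPS library 69 cells shared cluster 2 with most PBS cells, and their level was 523 CPM (440.9 to 616.2) beside 411 CPM in PBS. Cycling cells had 503 CPM in PBS.

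The promoters of these genes can be read side by side. In the RefSeq promoter table (build GRCm38.p6, 250 bases before to 50 bases after the start), 29 of the 37 genes had an entry. The core of the interferon-stimulated response element, GAAA, any 2 bases and GAAA on either strand (TTTC, any 2 bases and TTTC on the other), was found in 17 of these 29 (58.6%), against 1079 of 27025 genes in the table (3.99%). Examples are printed 5′ to 3′ on the strand of the gene, with the matching bases in capitals and 25 bases on each side where the window allows: Isg15, with 3 overlapping matches, Rsad2 and Bst2 as genes at least 2-fold higher in alveolar-macrophage-like cells after LPS, Stat2 and Trim30a as genes that were not, and the near-copies Ifit3 and Ifit3b, and Ifi205 and Ifi211.
Isg15 (chr4:156200850-156200921, minus strand): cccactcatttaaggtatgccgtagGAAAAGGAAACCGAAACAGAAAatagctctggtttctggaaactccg
Rsad2 (chr12:26456538-26456597, minus strand): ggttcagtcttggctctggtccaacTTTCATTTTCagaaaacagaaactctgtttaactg
Bst2 (chr8:71537562-71537627, minus strand): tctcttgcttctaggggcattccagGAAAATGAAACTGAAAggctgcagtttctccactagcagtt
Stat2 (chr10:128270251-128270310, plus strand): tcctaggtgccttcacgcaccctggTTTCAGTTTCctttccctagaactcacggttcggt
Trim30a (chr7:104465195-104465254, minus strand): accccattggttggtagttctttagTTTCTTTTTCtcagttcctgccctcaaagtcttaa
Ifit3 (chr19:34583382-34583441, plus strand): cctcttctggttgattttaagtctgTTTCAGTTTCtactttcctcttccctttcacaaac
Ifit3b (chr19:34607778-34607837, plus strand): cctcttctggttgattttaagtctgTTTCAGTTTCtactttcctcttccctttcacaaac
Ifi205 (chr1:174031855-174031914, minus strand): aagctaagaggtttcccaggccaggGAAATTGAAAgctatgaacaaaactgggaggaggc
Ifi211 (chr1:173913049-173913108, minus strand): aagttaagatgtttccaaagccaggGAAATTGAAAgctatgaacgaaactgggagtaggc

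The Ifit3 and Ifit3b stretches are identical over 60 bases, and those of Ifi205 and Ifi211 share 54 of 60. The match began 78 bases before the start in Isg15, 120 in Rsad2, 130 in Bst2, 222 in Stat2 and 36 in Trim30a. Among genes past the floor in alveolar-macrophage-like cells, the element was in 8 of 12 with at least a 2-fold higher level after LPS (66.7%) and in 3 of 5 of the others (60.0%), so its presence did not separate them. Irf7, Irf9, Oasl1, Oasl2, Cmpk2 and Xaf1 were among the 12 genes without these letters in the window, which says nothing about other forms of the element or other places. A match is a description of the sequence and no binding was measured. Several members lie together in the genome: the 4 IFIT genes on chromosome 19, Oasl1 and Oasl2 on chromosome 5, Oas1a, Oas2 and Oas3 elsewhere on that chromosome, and the 3 PYHIN genes on chromosome 1.

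Dendritic-cell-like cells shared the higher levels after LPS. The sum was 1572 CPM with PBS, 3852 CPM (3796 to 3910) with LPS and 3338 CPM (3242 to 3435) with LPS plus Reg3g. Of 32 genes past the floor, 22 were higher by at least 2-fold after LPS and 0 lower, against a background of 6.55% higher and 6.87% lower, and over all 37 genes 25 were higher by that much. Isg15 had 18.9, 336 and 299 CPM (log2 ratio of LPS over PBS 4.15, 3.93 to 4.39). Irf7 had 17.1, 188 and 112 CPM, and Oasl1, an OAS relative that limits Irf7 translation, had 5.02, 62.5 and 55.4 CPM. Of the 4 IFIT genes 3 were past the floor here, and none in alveolar macrophages: Ifit3 had 6.43, 58.8 and 36.7 CPM. Samd9l went the other way in this pooled class with 57.2, 31.3 and 30.2 CPM (log2 -0.87, -1.15 to -0.60). It also passed the floor in the type 1 and type 2 subsets, where the lowest ratio of any such gene was -0.43 and -0.33. Stat2 was near level with 50.2, 44.4 and 48.9 CPM. The mix of dendritic subsets differed between libraries, from 684 type 1 cells of 1231 with PBS to 531 migratory cells of 1106 with LPS. Its part in the pooled ratios was not tested.

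Within each dendritic subset the direction was the same. Type 1 conventional dendritic-cell-like cells had sums of 1399, 3643 and 2983 CPM, type 2 cells 1940, 5977 and 5713 CPM, and migratory cells 1391, 2819 and 2471 CPM. With LPS, 21 of 30, 27 of 33 and 14 of 30 genes past the floor were at least 2-fold higher (backgrounds 4.04%, 8.96% and 9.58%), and 0 were lower in each (backgrounds 5.13%, 7.99% and 6.99%). Over all 37 genes 27, 29 and 16 were higher by that much and 0, 0 and 2 lower. Ifi205 marked a contrast between subsets: type 1 cells had it in PBS already (147, 342 and 328 CPM), whereas type 2 cells had 1.70, 72.5 and 95.3 CPM. Its PBS level in type 2 cells rests on 5 UMIs. The classical monocyte markers summed to 1046, 1486 and 1281 CPM in dendritic-cell-like cells, beside 9712, 6732 and 7162 CPM in monocyte-like cells, and their part in the result was not tested.

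Interstitial-macrophage-like cells, the macrophages of the lung tissue, were few after LPS (467, 154 and 126 cells) but had a ratio as large as that of alveolar macrophages. Their sum was 1557 CPM with PBS, 4793 CPM (4616 to 4975) with LPS and 5200 CPM (5015 to 5389) with LPS plus Reg3g. Of 32 genes past the floor 17 were higher by at least 2-fold after LPS and 0 lower (background 9.39% and 13.4%). Over all 37 genes 21 were higher by that much and 1 lower. Oasl1 had 3.54, 133 and 57.0 CPM from 7, 77 and 33 UMIs, and Isg15 had 30.9, 206 and 223 CPM. Oasl1 was thus higher in both LPS libraries but differed between them, whereas Isg15 was alike in the 2. Neutrophil markers summed to 138, 465 and 1304 CPM in this class. Siglech, a marker of plasmacytoid dendritic cells, had 33.4, 0 and 0 CPM. The part of RNA from other cells in these values was not tested.

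Classical-monocyte-like cells had no such general difference. Their sum was 8654 CPM with PBS, 8398 CPM (8293 to 8503) with LPS and 6839 CPM (6748 to 6932) with LPS plus Reg3g. Of 34 genes past the floor, 4 were higher by at least 2-fold after LPS and 1 was lower, against a background of 7.28% and 6.30%, and the median log2 ratio was 0.03, the same as over all genes. The 4 were Ifi205 (20.2, 102 and 34.9 CPM), Oasl1 (23.7, 67.5 and 45.6 CPM), Irf7 (210.0, 437 and 203 CPM) and Isg15 (147, 303 and 216 CPM). Cmpk2, a mitochondrial nucleotide kinase encoded next to Rsad2, was the lower one with 28.6, 12.3 and 14.6 CPM. Of the other signalling and conjugation genes, Usp18 (log2 0.07), Herc6 (-0.38), Irf9 (-0.59) and Stat2 (-0.48) were not higher by that much. The result depends on how the class is drawn: in monocyte-like cells with a UMI of Ly6c2, Vcan or F13a1 and of no nonclassical gene, the sum was 9067, 6460 and 6125 CPM, with 2 genes at least 2-fold higher and 8 lower with LPS.

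Over all monocyte-like cells together, the sum was 7572, 6303 and 6033 CPM, a log2 ratio of LPS over PBS of -0.26 (-0.28 to -0.25). Of 34 genes past the floor, 4 were at least 2-fold higher and 2 lower with LPS (background 10.5% and 7.28%). Irf7 had 173, 365 and 293 CPM, Oasl1 had 18.1, 53.6 and 46.2 CPM, and Slfn5 had 415, 198 and 242 CPM. Slfn5 thus stood lower in monocytes with LPS and higher in alveolar macrophages, where its level was under 10% of that of another class. After LPS the cells with both marker sets had 7160 CPM, the inflammatory-monocyte-derived-macrophage-like cells 4483 CPM and the cycling monocyte-like cells 4978 CPM, so the pooled value mixes classes of different level.

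Nonclassical-monocyte-like cells had sums of 5381, 6517 and 6288 CPM. Of 32 genes past the floor 8 were at least 2-fold higher and 2 lower with LPS (background 6.28% and 8.73%). Irf7 had 96.6, 480 and 430 CPM (log2 ratio of LPS over PBS 2.31, 2.03 to 2.60). This class held 229 and 224 cells after LPS at median depths of 1478 and 1728 UMIs, and its count of higher genes was 19 when interferon genes entered the clustering and 19 with no doublet removal. Between the LPS libraries 8 of the 32 members stood higher by at least 1.5-fold and 6 lower with Reg3g (background 16.0% and 14.5%), and for Ifit2 and Ifi211 these ratios rest on 1 UMI in a library.

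Of the genes that start the pathway, the interferons themselves were nearly unseen. None of 20 ligand genes passed the floor in alveolar-macrophage-like, monocyte-like or dendritic-cell-like cells, and Ifnb1 had 1, 5 and 4 UMIs in all kept cells of the 3 libraries, in the usual order. Ifng, the type II interferon, was read in lymphoid-like cells at 30.7, 55.8 and 56.8 CPM from 14, 31 and 24 UMIs. At 24 h the response genes were thus seen with few or no reads of the ligands, and earlier times were not measured.

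Of 9 receptor and signalling genes past the floor in alveolar-macrophage-like cells, 1, the kinase gene Jak2, was at least 2-fold higher with LPS (16.7, 35.0 and 32.4 CPM) and 0 were lower, beside 5.67% and 11.5% of all genes. The receptor genes Ifnar1 (14.6, 23.7 and 22.8 CPM) and Ifnar2 (43.7, 80.6 and 62.5 CPM) were under that threshold. Ifngr1, a receptor chain for interferon gamma, was lower by less than 2-fold (166, 90.8 and 97.8 CPM, log2 -0.87).

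Among sensors and factors that induce interferon, 2 of 13 were at least 2-fold higher and 3 lower in alveolar-macrophage-like cells with LPS (background 5.67% and 11.5%). Ikbke, a kinase that activates Irf3 and Irf7, had 1.88, 29.4 and 31.0 CPM, and Zbp1, a sensor of Z-form nucleic acid, had 12.4, 74.9 and 61.0 CPM. Irf8, a lineage factor, had 184, 56.1 and 55.8 CPM, and Mavs, the adaptor of the RNA helicases, had 38.2, 14.9 and 16.4 CPM, and Ticam2, an adaptor of the LPS receptor, had 19.6, 8.42 and 8.38 CPM. Irf3, the factor that starts interferon transcription, had 25.4, 22.3 and 23.2 CPM. The group therefore held both higher and lower genes, and Irf3 was near level.

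Of 8 feedback inhibitors past the floor in alveolar-macrophage-like cells, 2 were higher and 2 lower by 2-fold (background 5.67% and 11.5%). Socs3, an inhibitor of cytokine receptor signalling, had 4.64, 88.2 and 82.7 CPM, and Ptpn1, a phosphatase of Jak2 and Tyk2, had 303, 1209 and 1063 CPM. The lower genes were Pias1, a Stat inhibitor (log2 -1.17), and Irf2bp2, a transcriptional corepressor (-1.15). Of 17 genes that lean towards interferon gamma, 7 passed the floor there and 10 in dendritic-cell-like cells. At least 2-fold higher with LPS were 6 of the 7 and 8 of the 10 (background 5.67% and 6.55%). A gene low in PBS passes the floor only through another library, and genes of the list under the floor were not counted. Gbp2, a guanylate-binding GTPase, had 16.8, 166 and 124 CPM in alveolar-macrophage-like cells. Ciita, the master regulator of MHC class II genes, was lower in dendritic-cell-like cells (127, 61.0 and 63.3 CPM). These data cannot tell responses to the 2 kinds of interferon apart, as many genes answer to both. Of 37 further interferon-induced genes past the floor 10 were at least 2-fold higher and 1 lower in alveolar-macrophage-like cells (background 5.67% and 11.5%). The chemokine gene Cxcl10 was at 8.35, 199 and 139 CPM, and the lower gene, the ubiquitin ligase gene Trim25, at 298, 134 and 123 CPM (log2 -1.15). With the shift of 0.34 that TMM scaling brings, Ticam2, Pias1, Irf2bp2 and Trim25 lay within 2-fold of PBS.

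With Reg3g added to LPS, the differences from LPS alone were small in alveolar-macrophage-like cells. The sum was 1253 CPM with LPS and 1151 CPM with LPS plus Reg3g (log2 ratio -0.12, -0.14 to -0.10). Of 21 genes past the floor 0 were at least 1.5-fold higher and 0 at least 1.5-fold lower, against a background of 0.646% and 0.454% of all genes, and no test was possible with 1 library in each group. By sign alone 14 of the 21 were lower, where 40.0% of all genes were lower (17 of the 21 with TMM scaling, which shifts every ratio by -0.04). Isg15 had 109 and 84.5 CPM (log2 -0.37, -0.44 to -0.29), Rtp4 had 39.3 and 30.9 CPM, and Ifitm3 had 91.3 and 73.5 CPM. Bst2 (321 and 329 CPM) and Rsad2 (18.2 and 19.3 CPM) were alike. By cluster, the level was 1441 and 1462 CPM in cluster 19, 964 and 831 CPM in cluster 14 and 784 and 603 CPM in cluster 13. The share of cells in cluster 13 was 11.3% with LPS and 19.5% with LPS plus Reg3g, and its part in the lower sum was not tested.

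Classical-monocyte-like cells, as the class was drawn here, differed more between the LPS libraries. The sum was 8398 CPM with LPS and 6839 CPM with LPS plus Reg3g (log2 -0.30, -0.32 to -0.27). Of 34 genes past the floor 7 were at least 1.5-fold lower and 0 higher (background 2.36% and 2.91%), and 30 were lower by any amount, against 47.8% of all genes. Ifi205 had 102 and 34.9 CPM (log2 -1.54, -1.87 to -1.22), Ifit2 had 49.4 and 18.1 CPM, Ifit3 had 72.3 and 33.3 CPM and Irf7 had 437 and 203 CPM (log2 -1.11, -1.25 to -0.97). Phf11b had 76.8 and 42.7 CPM, Stat2 58.6 and 35.6 CPM, and Rsad2 59.0 and 36.2 CPM. For Ifit2, Ifit3, Phf11b, Stat2 and Rsad2 the level with Reg3g was also under that in PBS (37.8, 76.0, 76.9, 82.0 and 95.2 CPM), whereas for Irf7 it was near the PBS level.

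These monocyte values depended on how cells were assigned. Over the other settings the log2 ratio of the classical sum ran from -0.31 to -0.08, beside -0.17 to -0.12 for the alveolar-macrophage-like sum. The count of 7 was 2 when interferon genes entered the clustering, 2 with no doublet removal, 1 with the doublet share doubled, 3 with no cell filter and 1 with the per-cell gate. Over 10 settings in all, Ifi205 was lower in 10 (log2 -1.60 to -0.66) and Irf7 in 10 (-1.15 to -0.37), while Rsad2 ranged from -1.12 to 0.33 and Stat2 from -0.82 to 0.15. Neutrophil markers differed along with this contrast: summed over the list they stood at 196 CPM with PBS, 1726 CPM with LPS and 3620 CPM with LPS plus Reg3g in classical-monocyte-like cells. Without cells that hold a UMI of a neutrophil gene, the summed level of the 37 genes was 8670, 8380 and 6814 CPM, close to the values with them. S100a8 and S100a9, however, still summed to 21.3, 1183 and 3300 CPM in the cells that were kept, and the part of neutrophil RNA in the result was not tested. Over all monocyte-like cells together 0 genes were at least 1.5-fold higher and 1, Ifi205 (73.2 and 46.8 CPM), was lower (background 0.812% and 0.688%). Cycling monocyte-like cells (449 and 222) had 9 of 34 genes higher by that much and 0 lower (background 5.94% and 2.64%). By any amount 31 of the 34 were higher, against 59.8% of all genes. Cells with both marker sets had 0 higher and 1 lower of 34 (background 1.35% and 1.26%), and inflammatory-monocyte-derived-macrophage-like cells 2 and 1 (1.63% and 1.30%).

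**Figure D5:**
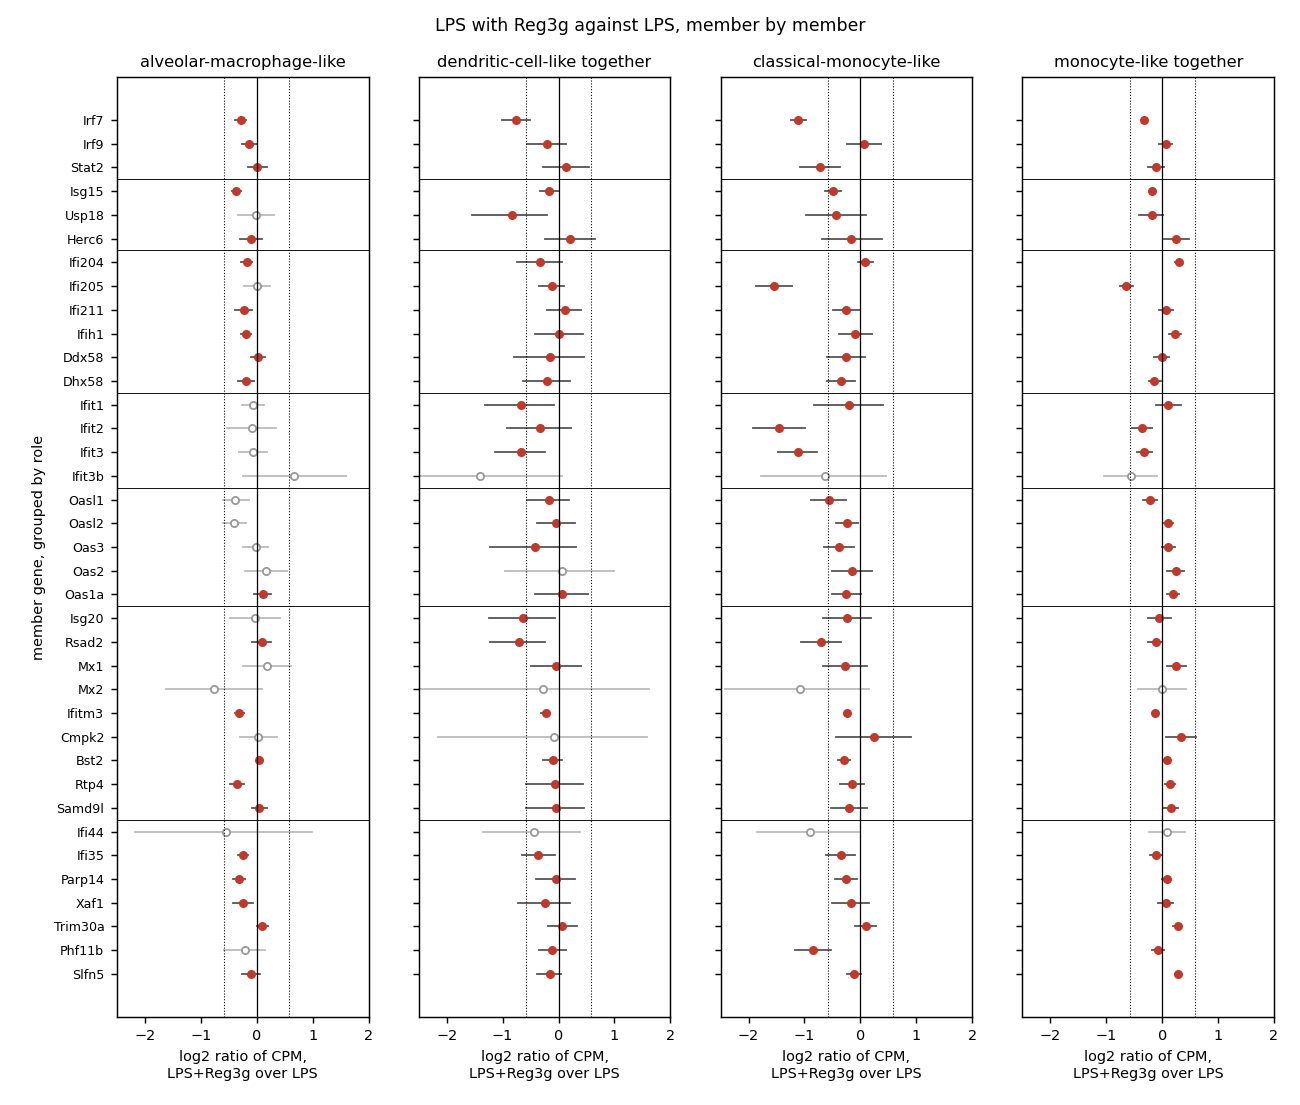
Log2 ratio of CPM, LPS with Reg3g over LPS alone, for each interferon response gene (rows, grouped by role) in 4 classes; bars are exact intervals for counting error, open grey points lie under the floor and dotted lines mark 1.5-fold. Ifi205, Ifit2, Ifit3 and Irf7 lie at -1.54, -1.45, -1.12 and -1.11 in classical-monocyte-like cells, and all filled points of alveolar-macrophage-like cells lie between the dotted lines.

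Dendritic-cell-like cells had 3852 CPM with LPS and 3338 CPM with LPS plus Reg3g (log2 -0.21, -0.25 to -0.16). Of 32 genes past the floor 6 were at least 1.5-fold lower and 0 higher (background 3.45% and 3.89%), namely Usp18 (29.7 and 16.6 CPM), Irf7 (188 and 112 CPM), Rsad2 (50.7 and 30.9 CPM), Ifit1 (32.3 and 20.2 CPM), Ifit3 (58.8 and 36.7 CPM) and Isg20 (33.4 and 21.6 CPM). The LPS with Reg3g library held 266 such cells, and 3 of the 6 rest on 23 to 30 UMIs there. By subset 9 of 30 genes were lower in type 1 cells (background 11.4%), 5 of 33 in type 2 (13.8%) and 7 of 30 in migratory cells (8.85%). The library held 67, 61 and 138 cells of these subsets, and the share in type 2 cells was near its background. Interstitial-macrophage-like cells had 2 genes higher and 3 lower of 32 (background 14.5% and 13.5%).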

How the data were processed

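Cells of 3 libraries, 1 per group, were profiled with a droplet 3′ kit. The authors deposited UMI counts for each gene and barcode, using Cell Ranger 9.0.1 and build mm10; per the submitters' processing notes, bcl2fastq 5.0.1 and Seurat 4.4.0 were used too. Which annotation they counted against was not given in the sources used here. GENCODE M21 holds 94.1% of the 55357 feature identifiers and gave positions and 3′ ends.

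Barcodes under 500 genes or 1000 UMIs, or with over 15% of UMIs from mitochondrial genes, were removed (343, 1135 and 544). The highest Scrublet scores, at 0.4% of barcodes per 1000 barcodes, then removed 272, 865 and 388 as doublets. Counts were scaled to 10000 per cell and logged. Clustering used 2000 variable genes without interferon genes, 30 components, 15 neighbours and Leiden resolution 1, and gave 21 clusters, 2 of them unnamed. Names come from 19 marker lists. The naming rule was set after clusters were seen, and the members and lists were chosen with earlier results of these data known.

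Within each library the counts of a class were summed and scaled to its total (CPM). Intervals are exact Poisson for CPM, exact conditional binomial for ratios and exact Clopper-Pearson for shares, at 95%, and were tested on simulated data. A count of 0 was set to a floor of 3 counts per library. Genes with a mean of at least 10 CPM over the libraries of a class with at least 50 cells passed the floor. Thresholds were 2-fold (LPS) and 1.5-fold (Reg3g). All 37 members could be named, with values for up to 6 highest and 4 lowest per class and contrast. From pathway lists fixed genes and up to 4 others with the largest ratios were named. Ciita and Trim25 were named after their values were seen. A gene of these lists is not reported here. With 1 library per group no test was made.

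A total of 16 other settings changed cell filter, doublet removal, clustering, scaling, weighting, thinning, floor and carry-over, and 3 more were chosen after seeing the data: a per-cell monocyte gate, leaving out cells with neutrophil genes, and sums without Ifitm3 and Bst2. Tools were Python 3.11.15, scanpy 1.11.5, scipy 1.17.1 and leidenalg 0.10.2.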

Additional observations from a re-analysis of the deposited data

Results flagged for a closer look

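Ifi211, a PYHIN family gene, differed between cell classes under the same contrast. Its log2 ratio of LPS over PBS was 3.33 in alveolar-macrophage-like cells (2.41 and 24.3 CPM) and -3.56 in nonclassical-monocyte-like cells (32.9 and 2.78 CPM), so the classes differed in opposite directions. With 1 library per group this difference was not tested. The nonclassical value rests on 1 UMI with LPS, with an interval of -8.89 to -1.05, and reads at the 3′ end of Ifi211 can match Ifi205.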

How the results depend on the processing

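Of 308 counts of members recomputed under the alternatives, 252 lay within 1.5 times the value given and 56 did not. Of 308 recomputed sums and medians, 64 differed by 0.1 or more on the log2 scale and 17 had the other sign, all of them in monocyte-like classes: the classical median ran from -0.46 to 0.09 for LPS (0.03 as given) and reached 0.08 for Reg3g (-0.25), and the nonclassical median reached -0.13 for Reg3g (0.14). Those 56 follow. Apart from a higher floor, which counts fewer genes, the cause was not tested.

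With a floor of 50 CPM the counts became: alveolar-macrophage-like LPS higher 4, dendritic-cell-like higher 7 and Reg3g lower 1, all monocyte-like higher 2, lower 1 and Reg3g lower 0, classical LPS lower 0 (2 with a floor of 5 CPM), nonclassical LPS higher 4, lower 0, Reg3g higher 3 and lower 1.

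In nonclassical-monocyte-like cells the LPS counts of 8 higher and 2 lower became 19 and 1 with interferon genes in the clustering, 19 and 0 with no doublet removal, and 14 and 1 with the doublet share doubled. The lower count was also 1 at Leiden resolution 2, 0 with each library clustered alone, 0 with no cell filter, 1 with each cell weighted equally, 0 with the per-cell gate and 1 without neutrophil-gene cells. Their Reg3g counts of 8 higher and 6 lower became 0 and 1 with interferon genes in the clustering, 2 and 1 at resolution 2, 0 and 3 with libraries clustered alone, 1 and 1 with no filter, 0 and 1 with the stricter cell filter (1000 genes, 10% mitochondrial UMIs), 0 and 2 with no doublet removal, 0 and 1 with doubled removal, and 1 and 2 with the gate. Thinning to 2000 UMIs gave 11 lower.

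In classical-monocyte-like cells the 7 genes lower with Reg3g became 2 with interferon genes in the clustering, 3 with no filter, 2 with no doublet removal, 1 with doubled removal and 1 with the gate, which also gave 1 higher, and for LPS 2 higher and 8 lower. In dendritic-cell-like cells the 6 lower with Reg3g became 3 with libraries clustered alone and 3 with cells weighted equally. Over all monocyte-like cells the 2 lower with LPS became 5 with the stricter filter, 4 with no doublet removal, and 1 each with median-of-ratios scaling, TMM scaling and cells weighted equally.

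In alveolar-macrophage-like cells the log2 ratio of the sum, LPS over PBS, ran from 1.57 to 1.92, the last with TMM scaling. No paired analysis was possible because each group is 1 library, and for the same reason no replicate could be left out. Resolution 0.5 gave no classical or nonclassical class, and the stricter filter gave each under 50 cells in PBS, hence no value for LPS over PBS. Depth limits the classes of few cells, above all nonclassical monocytes and dendritic cells with Reg3g.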
